A study of Mus musculus with 4 samples.

Results

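The genes described here belong to the mevalonate pathway and the first steps of sterol synthesis, with 1 gene of the sterol sensor. They were taken by symbol and were Hmgcs1, Mvd, Idi1, Fdps, Fdft1, Sqle and Insig1. Of these 7 genes, 6 were represented by 10 probes, among 16593 genes with a symbol and 25697 probes in all. Hmgcs1, Mvd, Idi1 and Fdps had 1 probe each, Sqle had 2 and Insig1 had 4. Fdft1, the gene of squalene synthase, had no probe under that symbol in the annotation used and was not analysed here. Of the 10 probes, 9 were above background on at least 2 of the 4 arrays.

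The mevalonate pathway turns acetyl-CoA into isoprenoid units, from which cells build squalene and then cholesterol. The liver is a main site of this synthesis. Transcription of the enzymes is driven largely by the membrane-bound factor SREBP-2, encoded by Srebf2, which its escort protein SCAP carries to the Golgi for cleavage when sterols are low. INSIG proteins hold SCAP in the endoplasmic reticulum when sterols are abundant, and the Insig1 gene is itself a target of SREBP.

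Livers came from mice labelled control and from mice labelled as having a liver-specific ROCK1 knockout (KO), ROCK1 being a kinase that acts on actin and myosin. All ate normal chow for 16 weeks and were kept under the same light cycle. Total RNA was read on single-colour Illumina bead arrays. Precision is limited by there being 2 arrays per group. The sources used here do not give the strain, sex, age, floxed allele or Cre driver, nor whether each array was a separate animal, so p-values measure the spread between arrays, which may be technical. Values below are log2(intensity + 16) after quantile normalisation unless called intensities, and a probe is called when limma's p, adjusted by Benjamini-Hochberg over all 25697 probes, is under 0.05.

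Background, read as the mode of the intensities, stood at 127.8 and 124.1 in control and at 180.0 and 181.0 in KO. A normalised value over 7.85 was taken as above background. The Rock1 probe read 8.51 and 8.51 in control and 8.06 and 7.91 in KO (difference -0.53, SE 0.12, limma adjusted p = 0.0181), a call that did not hold (0.0943, 0.0965 and 0.0994) when control replicate 1, control replicate 2 or KO replicate 2 was left out. The sources used here do not say which part of Rock1 was deleted, and a probe outside that part checks nothing. Of 8 hepatocyte markers 6 were above background on at least 2 arrays and 0 were called by limma (2 at an unadjusted p under 0.05). The Alb probe, for albumin, was above background only on control replicate 2 (7.81 and 7.92 in control, 7.63 and 7.71 in KO) and that of Fgb on no array, while Ttr, Apoa1, Apoc3 and Cyp2e1 read over 15 on every array.

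RefSeq promoter sequences were held for 4 of the members, and they are shown because these genes share a regulator but were read in different directions on the arrays: Mvd higher in KO, Idi1 and the brightest Insig1 probe lower, Hmgcs1 split between the KO arrays. Each line gives the 250 bases before the annotated start, 5' to 3' on the strand of the gene, in build GRCm38.p6. Capitals mark 4 motifs searched on both strands, the sterol regulatory element core (TCACNCCAC), the CCAAT box that NF-Y binds (CCAAT), the GC box of Sp1 (GGGCGG) and the E-box (CACGTG). A match on the opposite strand is printed as its reverse complement. No matched motif overlapped another.
Hmgcs1, chr13:119690101-119690350, plus strand: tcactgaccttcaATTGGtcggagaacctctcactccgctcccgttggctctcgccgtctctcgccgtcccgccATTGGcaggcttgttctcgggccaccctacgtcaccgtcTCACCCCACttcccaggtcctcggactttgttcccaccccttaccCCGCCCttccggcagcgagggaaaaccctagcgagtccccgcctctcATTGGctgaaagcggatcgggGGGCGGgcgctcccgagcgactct
Mvd, chr8:122443423-122443672, minus strand: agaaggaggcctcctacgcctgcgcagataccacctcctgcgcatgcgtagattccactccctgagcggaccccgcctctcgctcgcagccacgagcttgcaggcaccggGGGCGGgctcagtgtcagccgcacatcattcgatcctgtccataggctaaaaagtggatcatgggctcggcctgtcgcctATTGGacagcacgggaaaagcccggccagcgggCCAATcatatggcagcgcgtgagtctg
Idi1, chr13:8885356-8885605, plus strand: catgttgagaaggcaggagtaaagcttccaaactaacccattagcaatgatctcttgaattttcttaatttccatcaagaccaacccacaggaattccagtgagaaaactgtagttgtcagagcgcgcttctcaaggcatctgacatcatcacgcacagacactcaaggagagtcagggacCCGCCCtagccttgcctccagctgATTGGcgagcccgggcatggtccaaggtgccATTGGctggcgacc
Insig1, chr5:28071162-28071411, plus strand: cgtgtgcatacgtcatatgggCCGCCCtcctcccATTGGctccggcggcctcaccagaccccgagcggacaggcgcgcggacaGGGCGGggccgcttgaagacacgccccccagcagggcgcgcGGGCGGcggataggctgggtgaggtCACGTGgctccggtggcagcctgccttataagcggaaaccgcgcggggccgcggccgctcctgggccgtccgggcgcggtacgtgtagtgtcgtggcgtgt

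The sterol regulatory element core was found once, in Hmgcs1, 137 to 129 bases before the start, and 1.05% of all 32851 promoter windows of this length held it. Mvd, Idi1 and Insig1 did not hold these letters in this window. CCAAT boxes numbered 3 in Hmgcs1, 2 in Mvd, 2 in Idi1 and 1 in Insig1 (33.8% of all windows held at least 1), and GC boxes 2, 1, 1 and 3 (32.7% of all windows). The only E-box lay in Insig1, 101 to 96 bases before the start (6.02% of all windows). These are matches of letters and not shown binding sites.

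Of the 10 member probes, 3 were called higher in KO liver (Mvd, Fdps and 1 probe of Sqle), 2 were called lower (Idi1 and 1 probe of Insig1) and 5 were not called. Across the whole array limma called 8.02% of probes, 3.69% as higher and 4.32% as lower, and the share was 18.3% among the 9587 probes that exceeded background on 2 or more arrays. The median difference was 0.26 over the 10 probes and 0.0011 over all probes, and the calls went in both directions. The arrays of the 2 groups did not overlap for 7 of the 10 probes, where 51.9% of all probes showed no overlap. Fdps and the brighter Sqle probe lost their calls when control replicate 1 or control replicate 2 was left out. Hmgcs1 changed sign with the KO array left out.

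**Figure D1:**
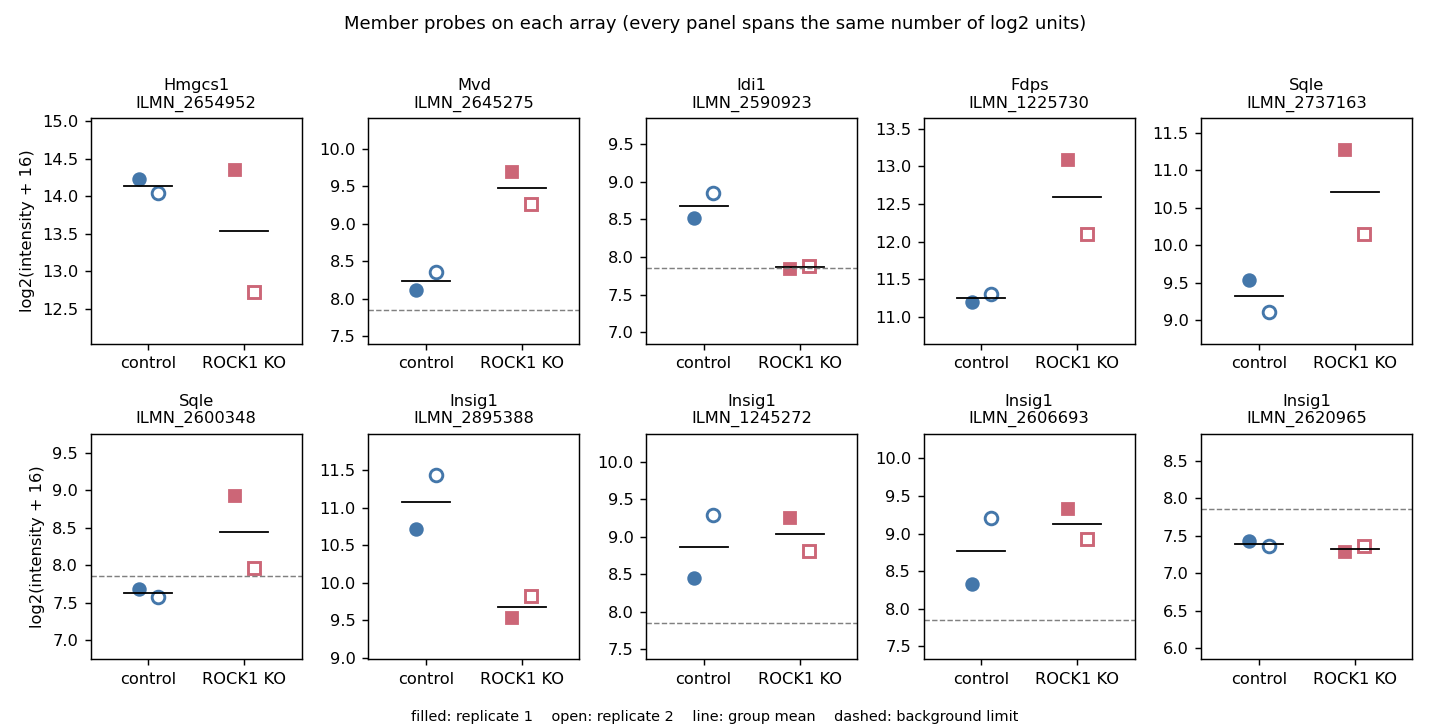
Normalised log2(intensity + 16) of each member probe on the 2 control arrays (circles) and the 2 ROCK1 KO arrays (squares), filled for replicate 1 and open for replicate 2, with the group mean as a line and the background limit of 7.85 dashed. Mvd, Fdps and both Sqle probes lie higher on both KO arrays, Idi1 and Insig1 probe ILMN_2895388 lie lower, and the KO arrays of Hmgcs1 stand 1.63 apart.

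Hmgcs1 encodes the cytosolic HMG-CoA synthase, which makes the precursor of mevalonate. Its probe (ILMN_2654952) read 14.23 and 14.04 in control, and 14.35 and 12.72 in KO. KO replicate 1 thus lay above both control arrays and KO replicate 2 below both. The intensities before normalisation showed the same order, 19300.3 and 12926 in control against 24497 and 7230 in KO. The difference of -0.60 (SE 0.36, 95% interval -1.39 to 0.20, limma adjusted p = 0.376) was not called. It was 0.22 without KO replicate 2 and -1.41 without KO replicate 1, so its sign rested on which KO array was used. With 75th percentile scaling in place of quantile normalisation it was called lower (-0.65, limma adjusted p = 0.00636). Under that scaling the adjusted p of the genes named here followed the size of the difference nearly alone. The call thus gave little weight to the gap between the KO arrays.

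Mvd encodes mevalonate diphosphate decarboxylase, which makes isopentenyl diphosphate. Its probe (ILMN_2645275) read 8.12 and 8.36 in control and 9.68 and 9.26 in KO. Both KO arrays were higher than both control arrays, by more than the gap within either group. Mvd rose by 1.23 (SE 0.16, 95% interval 0.87 to 1.59, 2.35-fold, limma adjusted p = 0.00129). The intensities before normalisation were 248.5 and 237.8 for control and 920.5 and 667.0 for KO, and after normexp background correction with quantile normalisation the difference was 1.64. The call held with each array left out in turn, with differences from 1.02 to 1.44.

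Idi1 encodes isopentenyl diphosphate isomerase, which interconverts isopentenyl and dimethylallyl diphosphate. Its probe (ILMN_2590923) read 8.52 and 8.85 in control and 7.85 and 7.88 in KO. Both KO arrays were lower than both control arrays and lay at the background limit, replicate 1 just under it and replicate 2 just over it. Idi1 fell by 0.82 (SE 0.13, 95% interval -1.11 to -0.53, 1.76-fold lower, limma adjusted p = 0.00355). Before normalisation it read 342.5 and 332.0 on the control arrays, then 249.9 and 257.3 on the KO arrays, where the background was higher, and the difference was -1.28 after normexp background correction with quantile normalisation. The call held with each array left out, from -0.98 to -0.65 (highest adjusted p = 0.0384).

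Fdps encodes farnesyl diphosphate synthase, whose product feeds squalene synthesis and protein prenylation. Its probe (ILMN_1225730) read 11.19 and 11.30 in control and 13.09 and 12.11 in KO. Both KO arrays were higher than both control arrays, and the KO arrays stood 0.98 apart. Fdps rose by 1.35 (SE 0.25, 95% interval 0.80 to 1.91, 2.55-fold, limma adjusted p = 0.00788). The difference was 0.86 without KO replicate 1 and 1.84 without KO replicate 2, fits in which the gap between the KO arrays does not enter the error. The call was lost without control replicate 1 or control replicate 2 (0.0794 and 0.0616), as it was under limma's robust option (0.0645).

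Sqle encodes squalene epoxidase, the first oxygen-dependent step of sterol synthesis. Its brighter probe (ILMN_2737163) read 9.54 and 9.11 in control and 11.27 and 10.15 in KO. The KO arrays were both higher than the control arrays and again replicate 1 was the higher of the 2. By this probe Sqle rose by 1.38 (SE 0.29, 95% interval 0.74 to 2.02, 2.61-fold, limma adjusted p = 0.0143). The difference was 0.82 without KO replicate 1 and 1.94 without KO replicate 2, where again the gap between the KO arrays does not enter the error. The call was lost without either control array (0.0607 and 0.147), under limma's robust option (0.189) and with the mean of both probes (0.0658).

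The dimmer Sqle probe (ILMN_2600348) read 7.68 and 7.58 in control, not above background, and 8.92 and 7.96 in KO. The order of the 4 arrays matched that of the brighter probe. With the dim control arrays set to the lowest value above the limit, its KO mean was 1.51-fold higher, a figure that leaves out the spread between arrays. The probe was not called (difference 0.81, SE 0.23, 95% interval 0.31 to 1.31, limma adjusted p = 0.0523). After normexp background correction with quantile normalisation it was called (1.38, adjusted p = 0.0443), while its difference was 0.33 without KO replicate 1 (0.155).

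Insig1, the sensor gene, was read by 4 probes that did not give 1 answer. The brightest (ILMN_2895388) read 10.72 and 11.43 in control and 9.53 and 9.82 in KO, with both KO arrays lower. It fell by 1.40 (SE 0.22, 95% interval -1.88 to -0.92, 2.64-fold lower, limma adjusted p = 0.00309), a call that held with each array left out (-1.76 to -1.04). The unnormalised intensities lay in the same order, at 1743 and 1960 for control and 830.7 and 979.8 for KO.

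The second probe (ILMN_1245272) read 8.44 and 9.29 in control and 9.25 and 8.81 in KO, and the third (ILMN_2606693) read 8.33 and 9.21 in control and 9.32 and 8.92 in KO. On these the groups overlapped, and control replicate 1 was the lowest of the 4 arrays. Their differences of 0.16 (SE 0.24, 95% interval -0.36 to 0.69, limma adjusted p = 0.753) and 0.35 (SE 0.24, 95% interval -0.17 to 0.88, adjusted p = 0.436) were not called. Neither interval reached the -1.40 of the brightest probe. The fourth probe (ILMN_2620965) was above background on no array, with values from 7.28 to 7.43. With the mean of all probes as the value of each gene, Insig1 read -0.24 and was not called (adjusted p = 0.499). The sources used here do not say which transcript or exon each probe reads.

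**Figure D2:**
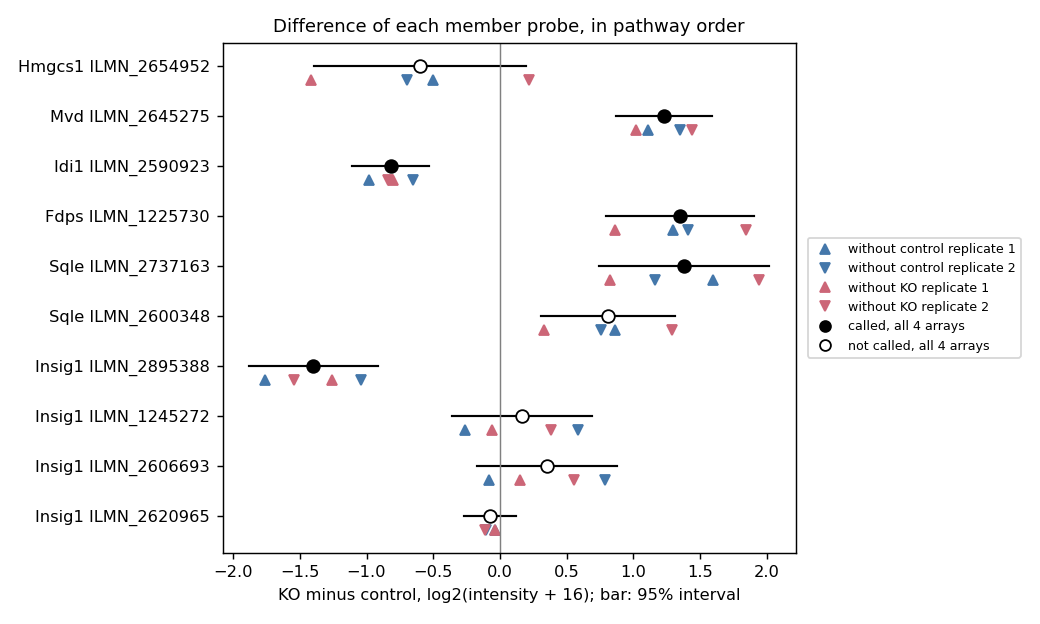
Difference KO minus control in log2(intensity + 16) for each member probe, in the order of the pathway with the sensor gene last, with 95% intervals, filled where called with all 4 arrays, and with triangles for the difference when 1 array is left out. Mvd stays between 1.02 and 1.44 and Idi1 between -0.98 and -0.65, Hmgcs1 moves from -1.41 to 0.22 with the KO array left out, and the Insig1 probes lie at -1.40, 0.16, 0.35 and -0.073.

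The 2 KO arrays differed from each other in several of these genes. KO replicate 1 exceeded KO replicate 2 by 1.63 for Hmgcs1, by 1.12 and 0.96 for the Sqle probes, by 0.98 for Fdps and by 0.42 for Mvd. Among the 9587 probes over the background limit on 2 or more arrays, the gap between the KO arrays, regardless of sign, had a median of 0.14 and a 95th percentile of 0.50. The gaps of Hmgcs1, Sqle and Fdps were larger than those of 99.2% to 99.8% of these probes, and that of Mvd was larger than 91.9%. Idi1 (-0.036) and the brightest Insig1 probe (-0.28) did not share this order, while Insig1 probes ILMN_1245272 and ILMN_2606693 did (0.44 and 0.40).

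Between the control arrays the order was different. The 3 Insig1 probes above background were higher on control replicate 2 by 0.72, 0.85 and 0.88, where the 95th percentile over the same probes was 0.45. Fdps and Mvd were higher there by 0.11 and 0.24, and Hmgcs1 and the brighter Sqle probe were lower by 0.19 and 0.43. Limma's error for each comparison above joins a spread of this kind with that of other probes of like intensity. For probes with wide gaps, the printed SE is thus smaller than their own arrays alone would give. Hmgcs1, with an SD of 1.15 between the KO arrays and an SE of 0.36, is such a probe. The brightest Insig1 probe, with an SD of 0.51 between the control arrays and an SE of 0.22, is another. The printed SE was likewise the smaller for Mvd, Idi1, Fdps, both Sqle probes and Insig1 probes ILMN_1245272 and ILMN_2606693. The labels give nothing that separates the arrays of a group.

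**Figure D3:**
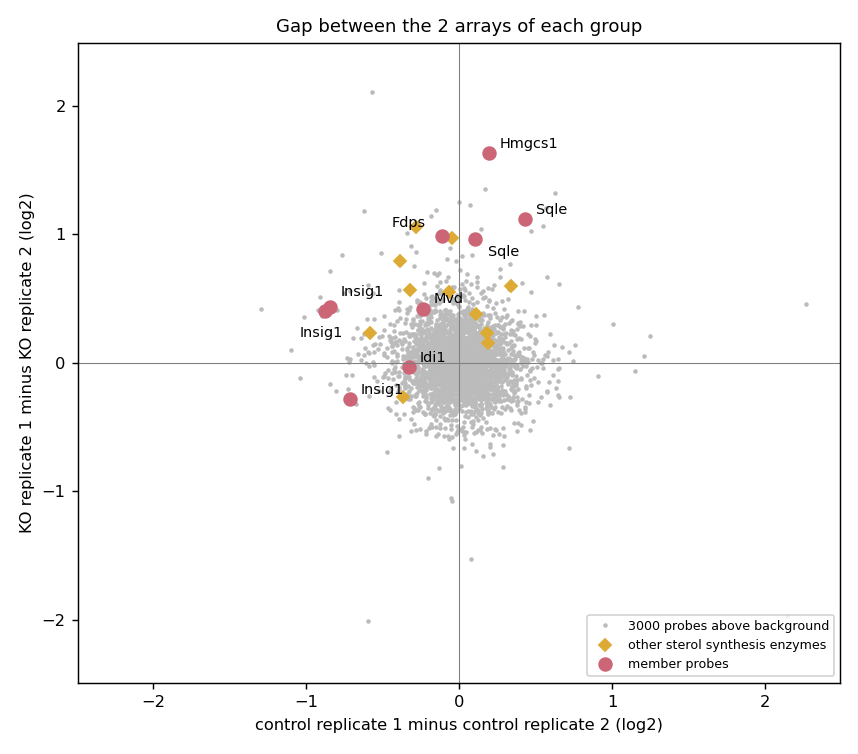
Gap between the 2 control arrays (horizontal) and between the 2 ROCK1 KO arrays (vertical), in log2 units, for member probes above background (circles), 11 other sterol synthesis enzymes (diamonds) and 3000 probes over the background limit on 2 or more arrays, drawn at random (grey). Hmgcs1, Sqle and Fdps lie high on the KO axis, with gaps larger than those of at least 99.2% of the 9587 probes, and the Insig1 probes lie at -0.72 to -0.88 on the control axis.

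By the distance between centred values over the 4 arrays, the called members lay nearest to those of the same direction. This follows in large part from the calls, which were made on the same values. Fdps lay nearest to Sqle (0.40) and Mvd (0.42), Idi1 lay nearest to Insig1 (0.67), and Hmgcs1 was 1.26 from Idi1, its nearest member. Among 6898 other genes above background on at least 2 arrays, those nearest to Mvd were Adh7, an alcohol dehydrogenase gene (0.12), and Etnppl (0.12), and those nearest to Idi1 were St13 (0.056) and Rbm4b (0.062). Nearest to Fdps were Abcd3, a peroxisomal transporter gene (0.29), and Mrps12 (0.30), and nearest to Sqle were Asns, the asparagine synthetase gene (0.38), and Gstp2 (0.38). Nearest to Hmgcs1 were Pcyt1a (0.32) and the glucose transporter gene Slc2a2 (0.33), and nearest to Insig1 were the chemokine gene Ccl9 (0.15) and Idh2 (0.19). Adh7 and Asns were not above background on the control arrays, nor Gstp2 on control replicate 2 and Pcyt1a on KO replicate 2, so their distances rest in part on values at the background. With 4 arrays such distances are only a description, and none of these nearest genes was an enzyme of sterol synthesis.

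Other enzymes of the route were examined beside the members. Of 15 listed, 11 were measured, each by its brightest probe, of which 3 were called higher, 0 lower and 8 were not called, with a median difference of 0.57 against 0.0037 over all 16593 genes. Dhcr7, which encodes the reductase of the last step to cholesterol, rose by 0.96 (8.26 and 8.85 in control, 9.62 and 9.39 in KO; limma adjusted p = 0.00991). Msmo1, a sterol C4-methyl oxidase gene, rose by 1.04 (10.81 and 11.20, then 12.44 and 11.65; 0.0214). Pmvk, the phosphomevalonate kinase gene that acts just before Mvd, rose by 0.61 (8.11 and 8.0, then 8.86 and 8.48; 0.0222). Without control replicate 1 none of these calls held (0.107, 0.170 and 0.0959).

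Lss (lanosterol synthase), Nsdhl and Hsd17b7 read 0.63, 0.57 and 0.47 and were not called (limma adjusted p of 0.0692, 0.168 and 0.157). KO replicate 1 was higher than KO replicate 2 for 10 of the 11 enzymes, with Ebp the exception at -0.27, against 49.1% of the probes above background, and the gap reached 1.05 for Cyp51. The median was 0.81 without KO replicate 2 and 0.20 without KO replicate 1. Without control replicate 1, 0 were called by limma (3 at an unadjusted p under 0.05), and without control replicate 2, 1 was. In each of these fits 9 of the 11 differences were positive.

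**Figure D4:**
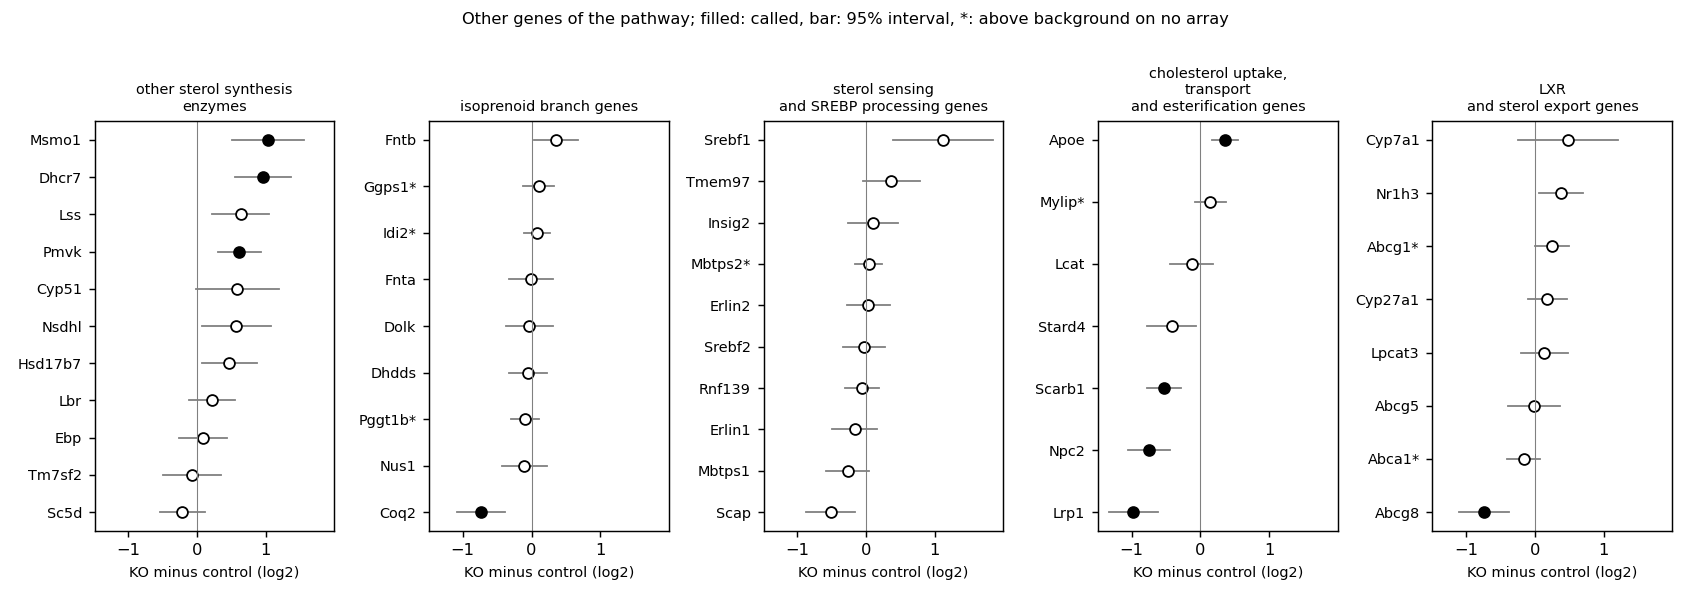
Difference KO minus control in log2(intensity + 16), with 95% intervals, for the brightest probe of each measured gene in 5 lists of the pathway, filled where called and starred where no array was above background. The sterol synthesis enzymes have a median of 0.57, with 3 of 11 called higher and 8 not called. Of 7 uptake and transport genes 3 were called lower, 1 was called higher and 3 were not called. Limma called 8.02% of all probes and 18.3% of those above background on at least 2 arrays.

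Of 9 isoprenoid genes, 1 was called lower and 8 were not called (median -0.033). Over all 5 lists 9 of 45 genes were called, 4 higher and 5 lower, against the 8.02% and 18.3% given above. Coq2, of coenzyme Q synthesis, fell by 0.73 (11.43 and 11.22 in control, 10.59 and 10.60 in KO; limma adjusted p = 0.0152), a call lost without either control array (0.133 and 0.0603). Fntb, a farnesyltransferase subunit gene, read 0.35 (0.181), and Ggps1 and Pggt1b were above background on no array.

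Of 10 genes of sterol sensing and SREBP processing 0 were called by limma (2 at an unadjusted p under 0.05), with a median of 0.0029. Srebf2 read 9.24 and 9.07 in control and 9.16 and 9.09 in KO, a difference of -0.029 (SE 0.14, 95% interval -0.33 to 0.28). Insig2, the paralogue of Insig1, read 13.77 and 13.37 in control and 13.48 and 13.87 in KO, a difference of 0.10 (SE 0.16, 95% interval -0.26 to 0.46). Scap read -0.52 (limma adjusted p = 0.0810) and Tmem97 read 0.37 (0.284). Srebf1, the gene of the lipogenic SREBP-1, read 1.12 (0.0623) on its brightest probe, with control arrays 1.17 apart and KO arrays 0.80 apart. Its value depended on the array left out, at 0.53 and 1.71 without control replicates 1 and 2. Without KO replicates 1 and 2 it was 1.52 and 0.72. The other Srebf1 probe (ILMN_2696876) was above background on no array and read -0.0073 (limma adjusted p = 0.974). The brightest probe was called under 75th percentile scaling (4.62e-09), but there adjusted p followed the size of the difference nearly alone, with little weight on these gaps. With normexp background correction it was called under 75th percentile scaling (1.36, limma adjusted p = 0.0257) and not under quantile normalisation (1.37, 0.0725). It was not called under limma's robust option (0.431).

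The list for cholesterol uptake, transport and esterification had 7 genes with a probe, of which 3 were called lower, 1 higher and 3 were not called (median -0.42). Lrp1, a lipoprotein receptor gene, fell by 0.97 (9.45 and 9.70 in control, 8.42 and 8.79 in KO; limma adjusted p = 0.00436), and Npc2, which encodes a lysosomal cholesterol carrier, fell by 0.75 (9.52 and 9.65, then 8.84 and 8.82; 0.00729). Scarb1, the receptor gene for high-density lipoprotein, was above background on no KO array and was called lower (0.0135), by at least 1.16-fold between the group means. Apoe was called higher (0.36, 0.0258), at 15.03 to 15.46 on every array, a call that ended with KO replicate 1 (0.0921) or either control array (0.101 and 0.0590) left out and under several other settings, among them 75th percentile scaling, where the difference was 0.15 (0.834). Without control replicate 2 the calls of Lrp1, Npc2 and Scarb1 were lost (0.0574, 0.0742 and 0.104), and that of Scarb1 was lost too without KO replicate 1 (0.0662) and under 75th percentile scaling (0.0855). Stard4 and Lcat read -0.42 and -0.13 and were not called (0.155 and 0.649), and Mylip was above background on no array.

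Of 8 genes of the LXR receptors and sterol export, 1 was called lower and 7 were not called (median 0.16). Abcg8, a subunit gene of the canalicular sterol exporter, fell by 0.75 (12.26 and 12.50 in control, 11.79 and 11.47 in KO; limma adjusted p = 0.0183), and its adjusted p was 0.0637, 0.157 and 0.0803 with control replicate 1, control replicate 2 and KO replicate 2 left out. Its partner Abcg5 read -0.011, with 12.28 and 12.65 in control and 12.62 and 12.29 in KO. Nr1h3, which encodes LXR alpha, read 0.38 (0.151), and Abca1 and Abcg1 were above background on no array.

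Of 32 markers of other liver cells 6 were called (18.8%), against 8.02% of all probes and 18.3% of those above background on at least 2 arrays. Of 7 Kupffer cell and macrophage markers 2 were called lower (Clec4f and Adgre1), the list median was -0.099 and the normalised intensities summed to 4682 and 4080 in control and 3677 and 3639 in KO. Of 7 sinusoidal endothelial markers 1 was called lower (Clec4g, 13.29 and 13.08 in control, 12.38 and 12.12 in KO), and this bright probe made up most of the sums of 12379 and 10913 (control) and 7214 and 6587 (KO). The list median was -0.19, and 3 of the 7 had an unadjusted limma p under 0.05. Oit3, Lyve1, Stab1, Kdr, Stab2 and Pecam1 read -0.41, -0.24, -0.19, -0.14, -0.13 and -0.055 without a call. Of these Lyve1 and Kdr were above background on no array.

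Of 6 stellate cell and fibroblast markers 1 was called lower (Col3a1, -0.62, above background on no KO array), and the list median was 0.014, with Lrat, Reln and Des at 0.19, 0.068 and 0.087. The sums of 13417 and 11465 in control, then 10814 and 10239 in KO, were largely those of Dcn, which was not called (-0.42, limma adjusted p = 0.107). Of 3 cholangiocyte markers 1 was called higher (Sox9, list sums of 553.6 and 562.1, then 664.8 and 728.5). No lymphocyte marker was above background on 2 arrays and 5 of 6 were so on none. Of these Ms4a1 was called higher (7.30 and 7.45, then 7.86 and 7.82), above background on KO replicate 1 only, with list sums of 1026.9 and 953.96 in control and 1017.5 and 1030.6 in KO. Of 3 adipocyte markers 0 were called by limma, and 0 at an unadjusted p under 0.05 (sums of 463.2 to 681.9). The part of these cells in the differences above was not tested, and in whole liver fewer cells of a type and less RNA per cell cannot be told apart.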

How the data were processed

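Livers of control and ROCK1 KO mice gave 4 single-colour Illumina arrays, grouped by their titles. The deposited intensities are linear values per probe with no detection p-values, per the file headers, and their lowest values (79.2 to 109.7) show that background was left in. The authors also deposited log2 values, which rank the probes of each array alike (rank correlation 1), with nearly equal medians (7.63). The sources used here do not say how they were made.

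Intensities were quantile-normalised, 16 was added and log2 was taken. Groups were compared with limma 3.58.1 under R 4.3.3 (lmFit, eBayes with an intensity trend, no block, two-sided, Benjamini-Hochberg over 25697 probes). The fit was also run on simulated arrays with known changes, where every probe had the same spread. Such a run cannot check how the fit treats probes of unequal spread. Background left in makes differences of dim probes smaller. A value above 7.85, the mode plus 3 SD of the values below it mirrored, was above background. A group with no array above it gives a bound, each dim array being set to at least the lowest value above the limit. The bound is of the group means and leaves out the spread between arrays. Symbols came from the platform annotation (23978 probes with 1 symbol, 0 with several, 1719 with none) and 23962 probes matched RefSeq of GRCm38.p6 by gene identifier. All member probes are named. From each of 5 lists the called genes and up to 3 others of smallest p are named, and further genes printed (Srebf2, Insig2, Cyp51, Ebp, Abcg5) were chosen after their values were seen. The members and lists were chosen with earlier results of these data known. Alternatives covered the offset, background, scaling, the authors' values, filters, variance model, block, each array left out, threshold and probe rule. Figures used matplotlib 3.10.9.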

Additional observations from a re-analysis of the deposited data

How the results depend on the processing

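Limma called 949 probes higher and 1111 lower, and 3 member probes higher and 2 lower. Leaving out 1 array gave 296 to 824 higher and 474 to 903 lower, with 1 to 4 members higher and 2 to 3 lower. At an adjusted p under 0.01 the counts were 300 and 495, and with each gene taken as the mean over its probes 529 and 612, with 1 member gene lower. With normexp and 75th percentile scaling they were 1336 and 1047, so more probes were higher than lower, and the median of all probes shifted by 0.16 under that scaling. A robust variance model left 1 member higher (Mvd), and only probes above background on all arrays left 1 lower, since Idi1 was not tested. Mvd kept its call under 17 of 17 alternatives and Idi1 under 16 of 16, while Fdps lost it under 3 of 17 and the brighter Sqle probe under 5 of 17.

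With 1 array left out, Hmgcs1 ran from -1.41 to 0.22, and the Insig1 probes ILMN_1245272 and ILMN_2606693 from -0.26 to 0.59 and from -0.085 to 0.79. The dim Insig1 probe ILMN_2620965 turned to 0.026 and 0.015 with 75th percentile scaling, without and with normexp. Lcat ran from -0.27 to 0.012, and with the mean of all probes Ggps1 and Mylip read -0.014 and -0.0085. The replicate numbers are not stated to pair the arrays, and the deviations of same-numbered arrays correlated at -0.057 over all probes. With the replicate block 1440 probes were called higher and 1480 lower, with 4 and 3 members, Hmgcs1 (limma adjusted p = 0.00608) and the dimmer Sqle probe being added. That fit leaves little of a probe's own spread to judge by. The gaps of Hmgcs1 were unlike, 1.63 between the KO arrays and 0.19 between the control arrays, so its call there gave them little weight. Differences of dim probes are limited by the background left in the values.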
